A study of Mus musculus with 30 samples.

Results

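Peptides on major histocompatibility complex (MHC) class I molecules show CD8 T cells what a cell makes, and 10 mouse genes of this pathway were followed here through tumours, cultured carcinoma cells and tumour-infiltrating leucocytes. They were chosen by name: the heavy chains H2-K1, H2-D1 and H2-T23, the light chain B2m, the immunoproteasome subunits Psmb8 and Psmb9, the peptide transporter chains Tap1 and Tap2, the loading factor Tapbp (tapasin) and the transcriptional activator Nlrc5. They are 10 of 55573 gene IDs in the bulk RNA tables, and all 10 were also measured in the single-cell matrices.

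In this pathway the proteasome cuts proteins into peptides, the TAP transporter moves the peptides into the endoplasmic reticulum, and tapasin helps to load them onto a heavy chain paired with beta-2 microglobulin. H2-K and H2-D are the classical class I molecules of C57BL/6 mice, and H2-T23 encodes Qa-1b, a nonclassical molecule read by the receptor CD94/NKG2A on NK cells and CD8 T cells. Interferon gamma raises the whole pathway, replaces standard proteasome subunits by their inducible counterparts and acts in part through NLRC5, and squamous carcinoma cells are known to vary in how far they use it.

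The study used the mouse oral squamous cell carcinoma lines MOC1, MOC1E1 and MOC22 and C57BL/6J mice. Bulk RNA came from untreated tumours (3 MOC1E1, 3 MOC1) and from cells of the lines grown in vitro (3 MOC1E1, 3 MOC1). Single-cell RNA came from tumours of mice given anti-PD-1, anti-CTLA-4 or isotype control antibody intraperitoneally on days 3, 6 and 9 after tumour inoculation, with 1 library per model and antibody, MOC22 having anti-PD-1 and isotype only. The MOC1 and MOC22 libraries are labelled as infiltrating T cells and the MOC1E1 libraries as infiltrating immune cells. The sources used here do not say how MOC1E1 was obtained, how old the mice were or how many stand behind a library. The cultures are labelled untreated, while their column names in the authors' table carry the text "plusifng", so whether they received interferon gamma is unclear.

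Bulk values are TPM, transcript abundances corrected for transcript length and scaled to the same total in every library, and the read depth behind them is unknown. The 6 carcinoma markers summed to 17324 to 18498 TPM in MOC1E1 tumours and 16883 to 17897 TPM in MOC1 tumours, and the leucocyte marker Ptprc stood at 10.2 to 22.1 TPM in the 6 tumours and at 0 to 0.06 TPM in the 6 cultures. The 8 single-cell libraries held 14766019 to 28466596 transcript counts (unique molecular identifiers, UMIs), 2694 to 4724 cells after filtering, 27791 in all, and medians of 3994.5 to 5878 UMIs per cell. Between 26 and 63 cell barcodes of a library also occurred in other libraries. The library MOC1E1 tumour 3 stands apart from the other 2 tumours of its line in interferon-induced genes (Cxcl10 at 249.8 TPM against 44.3 and 42.6 TPM), so results of the tumours are given with and without it.

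Of the 10 genes, 8 lie on chromosome 17 between 33919478 and 36032701 (GRCm38.p6, RefSeq), in the MHC. B2m lies on chromosome 2 (122147687 to 122153082) and Nlrc5 on chromosome 8 (94434335 to 94527272). Promoter windows of 300 bases, with 250 before and 50 after a RefSeq start, were held for 8 of the 10 genes. Tap2 and Nlrc5 are named only. H2-K1 had 2 windows, of which the first was used, and this one does not reach the upstream end of the gene at 34000619. The 5 windows below, of the 3 heavy chains, the light chain and a transporter chain, are shown for elements through which interferons and NLRC5 are known to act. H2-K1 and H2-D1 hold the same elements, and the others differ from them. Capitals mark matches on either strand to 6 motifs: the interferon-stimulated response element (ISRE) core (GAAA, any 2 bases, GAAA), the gamma activated site TTCNNNGAA, the CCAAT core of the Y box, the TGACG core of the X2 box, the shorter ISRE-like GAANNGAAA and the palindromic kappa B element of 11 bases that opens the run of capitals in H2-K1 and H2-D1. No 2 matches overlap in these windows.
H2-K1, chr17:34000298-34000597, minus strand: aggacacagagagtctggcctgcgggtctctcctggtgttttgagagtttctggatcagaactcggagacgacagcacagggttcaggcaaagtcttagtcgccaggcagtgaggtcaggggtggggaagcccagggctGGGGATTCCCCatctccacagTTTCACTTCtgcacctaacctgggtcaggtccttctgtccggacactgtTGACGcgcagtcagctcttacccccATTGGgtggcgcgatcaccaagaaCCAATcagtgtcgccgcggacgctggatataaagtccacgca
H2-D1, chr17:35262844-35263143, plus strand: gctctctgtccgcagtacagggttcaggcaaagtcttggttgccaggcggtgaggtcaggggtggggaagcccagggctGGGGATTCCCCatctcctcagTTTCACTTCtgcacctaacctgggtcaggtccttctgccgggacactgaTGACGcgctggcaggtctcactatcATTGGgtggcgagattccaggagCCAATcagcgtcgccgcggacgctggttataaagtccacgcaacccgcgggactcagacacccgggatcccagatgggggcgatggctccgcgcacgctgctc
H2-T23, chr17:36032652-36032951, minus strand: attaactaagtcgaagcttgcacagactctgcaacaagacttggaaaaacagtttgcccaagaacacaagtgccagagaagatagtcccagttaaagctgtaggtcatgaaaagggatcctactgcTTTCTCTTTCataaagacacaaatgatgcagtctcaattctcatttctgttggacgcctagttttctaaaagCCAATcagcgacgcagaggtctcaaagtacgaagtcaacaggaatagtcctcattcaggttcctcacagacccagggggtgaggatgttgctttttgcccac
B2m, chr2:122147437-122147736, plus strand: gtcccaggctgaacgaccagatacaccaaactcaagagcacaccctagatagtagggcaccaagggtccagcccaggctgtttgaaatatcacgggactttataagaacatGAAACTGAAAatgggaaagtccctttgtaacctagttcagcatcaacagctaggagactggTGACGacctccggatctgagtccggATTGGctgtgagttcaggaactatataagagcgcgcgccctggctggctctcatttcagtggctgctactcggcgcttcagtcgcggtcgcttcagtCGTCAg
Tap1, chr17:34187306-34187605, plus strand: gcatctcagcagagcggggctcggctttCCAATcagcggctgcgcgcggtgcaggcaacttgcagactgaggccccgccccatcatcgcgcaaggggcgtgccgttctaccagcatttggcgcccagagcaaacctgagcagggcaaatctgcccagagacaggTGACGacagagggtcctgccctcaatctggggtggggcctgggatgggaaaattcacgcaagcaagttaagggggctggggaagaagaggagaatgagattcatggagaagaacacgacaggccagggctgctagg

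The windows of H2-K1 and H2-D1 were near copies, with 206 of 228 aligned bases (90.4%) identical. Both held the kappa B element, found in 6 of 27025 promoter windows of the mouse (0.0222%), followed by TTTCACTTC, a match to GAANNGAAA (7.56% of windows). These 2 motifs were added after the sequences had been read. The ISRE core stood in B2m and H2-T23 (3.49% of windows) and the gamma activated site in Psmb8 (8.47%). CCAAT was present in 7 of 8 windows (37.9% of all windows) and TGACG in 5 of 8 (21.0%), H2-T23 having CCAAT without TGACG. Tap1 and Psmb9 are read in opposite directions from 1 stretch, and their windows share 275 bases. Their CCAAT and TGACG matches are the same bases, counted once for each gene. With H2-K1 and H2-D1 also near copies, the windows are not independent, and the counts out of 8 overstate the separate sites. A match describes letters in the window, not binding.

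In untreated tumours the heavy chain genes overlapped between the lines. H2-K1 stood at 3319.6, 3744 and 5895 TPM in MOC1E1 tumours 1, 2 and 3, against 4292, 3631 and 3511 TPM in MOC1 tumours. H2-D1 stood at 1547, 1580.2 and 2288 TPM in MOC1E1 tumours, against 1885, 1606 and 1670.1 TPM in MOC1 tumours. For both genes MOC1E1 tumours 1 and 2 lay within or below the MOC1 range and tumour 3 lay above it. H2-T23 stood at 348, 379 and 652 TPM in MOC1E1 tumours, against 599, 522 and 474.5 TPM in MOC1 tumours, again with the MOC1E1 libraries on both sides. Transcripts of H2-K1, H2-D1 and the H2-Q genes are alike in sequence, so how kallisto divided reads among them is uncertain.

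The light chain and the peptide supply genes had the same layout. B2m stood at 3225, 3139 and 4481 TPM in MOC1E1 tumours, against 3656, 3634 and 3464 TPM in MOC1 tumours. Psmb8, which encodes the inducible subunit beta-5i, stood at 323, 314 and 571 TPM in MOC1E1 tumours, against 458, 432 and 434 TPM in MOC1 tumours. Tumours 1 and 2 of MOC1E1 were below all MOC1 tumours for both genes and tumour 3 was above all of them. Psmb9, the beta-1i subunit, stood at 130.15, 132 and 337 TPM in MOC1E1 tumours, against 203, 163 and 186 TPM in MOC1 tumours. Tap1 stood at 161, 153 and 310.1 TPM in MOC1E1 tumours, against 226, 194 and 186 TPM in MOC1 tumours. Tap2 stood at 73.2, 81.9 and 166 TPM in MOC1E1 tumours, against 133, 105 and 105 TPM in MOC1 tumours. In Psmb9, Tap1 and Tap2 too, the 3 MOC1 tumours lay between MOC1E1 tumours 1 and 2 and MOC1E1 tumour 3. Tapbp was the exception, at 276, 261 and 449 TPM in MOC1E1 tumours, against 466, 447 and 419 TPM in MOC1 tumours, so that even tumour 3 stayed within the MOC1 range. Nlrc5, the least abundant of the 10, stood at 47.35, 72.5 and 130.5 TPM in MOC1E1 tumours, against 76.8, 47.6 and 41.9 TPM in MOC1 tumours.

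None of the 10 genes passed the test between MOC1E1 and MOC1 tumours, and the 2 groups overlapped in all 10, against 16.6% of tested genes with every MOC1E1 library above and 22.5% with every one below. The limma-trend test on log2(TPM + 1), adjusted over 15125 genes, called 2820 genes (18.6%; 6.7% higher and 11.9% lower in MOC1E1) at an adjusted p of 0.05 or less. One of the 10, Tapbp, had an unadjusted p under 0.05 by limma (difference -0.48, SE 0.19, adjusted p = 0.126). The other differences ran from -0.26 for H2-T23 to 0.51 for Nlrc5 (SE 0.36), with H2-K1 at 0.14 (SE 0.20), H2-D1 at 0.05 (SE 0.15) and B2m at -0.01 (SE 0.14). The median over the 10 was -0.03 and over all tested genes -0.04. After rescaling by median-of-ratios 4 of the 10 differences were below 0, against 7 as deposited, and the split of all calls was 1638 higher and 1770 lower, against 1014 and 1806; after quantile scaling it was 1957 and 1646. MOC1E1 averaged 4319 ± 1381 TPM of H2-K1 and MOC1 3811 ± 421 TPM (SD, n = 3 each).

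**Figure D1:**
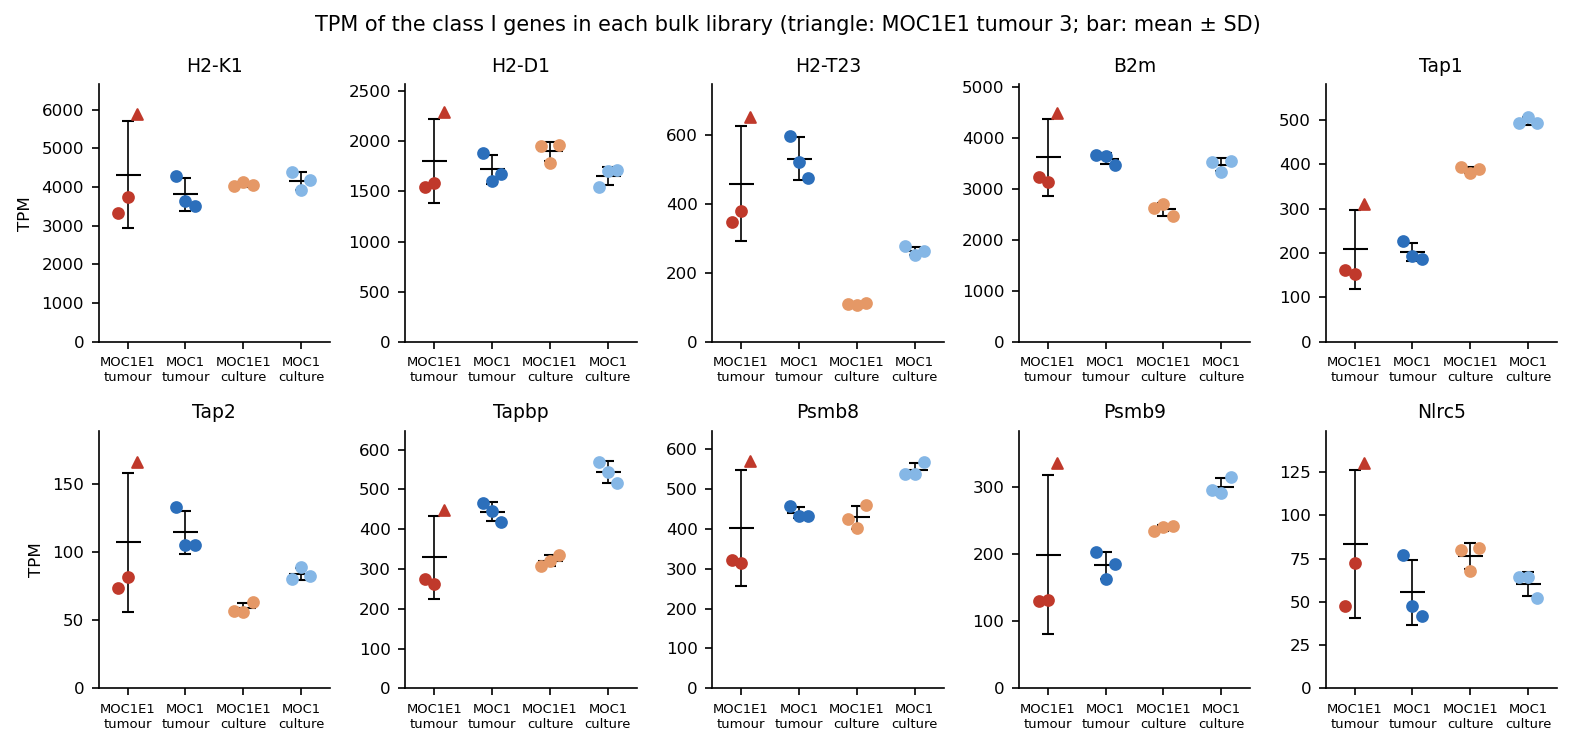
TPM (linear axes from 0) of each gene in the 12 bulk libraries, MOC1E1 left of MOC1 for tumours and then for cultures; points are libraries, bars the mean ± SD of 3. The triangle, MOC1E1 tumour 3, is the highest MOC1E1 tumour in all 10 panels, and the culture groups are apart in all panels but H2-K1.

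MOC1E1 tumour 3 was the highest of its line in 10 of 10 genes, and more than 1.3-fold above both other tumours in 10 of 10; of all tested genes 32.3% were highest in this library and 8.44% passed 1.3-fold. Its TPM over the mean of tumours 1 and 2 was 1.41 for B2m, 1.46 for H2-D1 and 1.67 for H2-K1, and larger for the inducible proteasome and transporter genes, with 1.79 for Psmb8, 1.97 for Tap1, 2.14 for Tap2 and 2.57 for Psmb9. Nlrc5 had 2.18, H2-T23 1.79 and Tapbp 1.67. The standard proteasome genes did not share this: 0 of 14 passed 1.3-fold, with ratios of 0.94 for Psmb5 and 1.00 for Psmb6, the subunits that Psmb8 and Psmb9 replace. Of 13 interferon gamma-induced genes 13 passed 1.3-fold (median ratio 4.09), as did 18 of 20 type I interferon response genes (median 2.26), 8 of 11 other class I heavy chains (median 1.99) and 3 of 9 MHC class II genes (median 1.02). These ratios describe 1 library and have no test, and those of interferon-induced genes come from the values that set it apart.

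Markers of other cells also moved with this library. The 10 T cell markers summed to 94.8 TPM in MOC1E1 tumour 3, against 47.25 and 65.0 TPM in tumours 1 and 2. The 13 macrophage and monocyte markers summed to 902 TPM in tumour 3, against 1998 and 1816 TPM, and the 6 fibroblast markers to 509 TPM, against 1995 and 2439 TPM. Apoe made up a large part of the macrophage sums, at 371 TPM in tumour 3, against 1158 and 986 TPM. Most of the other macrophage markers were also lower in tumour 3, but Fcgr1 was higher (8.58 TPM, against 6.64 and 4.41) and Ly6c2 lay between. Ptprc stood at 10.7 TPM in tumour 3, against 10.2 and 13.7 TPM. No T cell, macrophage or fibroblast marker was at 0 in any tumour, and the part of these cells in the class I values was not tested. In bulk tumours, fewer cells of a type and less RNA per cell cannot be told apart.

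Without MOC1E1 tumour 3, 5 of the 10 genes were called lower in MOC1E1 tumours, against 11.4% of all tested genes called lower (17.3% called either way). By limma, Tapbp differed by -0.72 (adjusted p = 0.00154), Tap2 by -0.55 (0.0261), H2-T23 by -0.54 (0.0151), Psmb9 by -0.48 (0.0219) and Psmb8 by -0.47 (0.00609). Tap1, at -0.36, missed the threshold (adjusted p = 0.0517). The classical heavy chains and the light chain differed less, at -0.11 for H2-K1, -0.13 for H2-D1 and -0.17 for B2m, none of them called, and Nlrc5 stood at 0.13. In the same fit 12 of 13 interferon gamma-induced genes were called lower (median -1.17), against 1 of 13 with all tumours. Tumour 3 had been set apart by its interferon-induced genes, so this count depends on that choice and is no separate result. This fit leaves 2 MOC1E1 libraries and was run because the third stood apart.

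Several leucocyte markers were lower in MOC1E1 tumours as well, and their counts are given for the fit of all tumours and for that without MOC1E1 tumour 3. Of all tested genes 11.9% were called lower in the first fit and 11.4% in the second. Every MOC1E1 tumour was below every MOC1 tumour in 22.5% of genes. Of 9 tested neutrophil markers 8 were called lower in both fits, and the summed level of the 10 markers was 22.96 to 72.6 TPM in MOC1E1 and 232 to 296 TPM in MOC1 tumours, 1 of the 10 being at 0 in each of 3 tumours. Mast cell markers were called lower in 4 of 4 in both fits, with sums of 11.9 to 14.5 TPM in MOC1E1 and 41.0 to 46.3 TPM in MOC1 tumours. Macrophage and monocyte markers were called lower in 4 of 13 in both fits, with sums of 902 to 1998 TPM in MOC1E1 and 2386 to 2597 TPM in MOC1 tumours. Apoe made up a large part of these sums, at 371 to 1158 TPM in MOC1E1 and 1242 to 1404 TPM in MOC1 tumours. The sums of these 3 lists did not overlap between the lines. The 10 NK markers summed to 67.2 to 95.2 TPM in MOC1E1 and 122 to 135 TPM in MOC1 tumours. Tyrobp made up most of these sums, at 47.45 to 87.99 TPM in MOC1E1 and 103.92 to 118.38 TPM in MOC1 tumours. Ncr1 stood at 0 to 0.67 TPM over all tumours, so the sums say little of NK cells. Of the 3 NK markers tested, 0 were called lower with all tumours and 2 without tumour 3. T cell markers were called lower in 1 of 10 with all tumours and in 2 of 10 without tumour 3 (median -0.63), with sums of 47.25 to 94.8 TPM in MOC1E1 and 72.7 to 90.7 TPM in MOC1. The counts of T cell markers are near the shares of all genes called lower. The part of leucocytes in the class I difference was not tested.

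In cultured cells, where Ptprc was at or near 0, the lines separated. H2-T23 stood at 109, 107 and 114 TPM in MOC1E1 cultures, against 277, 252 and 263 TPM in MOC1 cultures. Tapbp stood at 308, 321 and 334 TPM in MOC1E1 cultures, against 569.9, 544 and 515 TPM in MOC1 cultures. Every MOC1E1 culture was below every MOC1 culture in both genes. B2m stood at 2618, 2707 and 2456 TPM in MOC1E1 cultures, against 3531, 3317 and 3548 TPM in MOC1 cultures. Tap1 stood at 393, 379.7 and 389 TPM in MOC1E1 cultures, against 492, 507 and 493 TPM in MOC1 cultures. Tap2 stood at 57.0, 55.65 and 63.4 TPM in MOC1E1 cultures, against 80.5, 88.9 and 82.5 TPM in MOC1 cultures. Here too the groups did not overlap, with MOC1E1 lower. Psmb8 stood at 425, 401 and 459.7 TPM in MOC1E1 cultures, against 538, 539 and 568 TPM in MOC1 cultures. Psmb9 stood at 235, 240.3 and 243 TPM in MOC1E1 cultures, against 296, 292 and 315 TPM in MOC1 cultures. The 2 immunoproteasome genes were thus apart in the same direction.

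The classical heavy chains and the activator did not follow. H2-K1 stood at 4013, 4124 and 4046 TPM in MOC1E1 cultures, against 4377, 3923 and 4173 TPM in MOC1 cultures, and the groups overlapped. H2-D1 stood at 1948, 1787 and 1964 TPM in MOC1E1 cultures, against 1546, 1708 and 1709.5 TPM in MOC1 cultures. Nlrc5 stood at 80.1, 67.9 and 81.2 TPM in MOC1E1 cultures, against 64.4, 64.1 and 52.2 TPM in MOC1 cultures. For H2-D1 and Nlrc5 every MOC1E1 culture was above every MOC1 culture.

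Of the 10 genes, 7 were called lower and 2 higher in MOC1E1 cultures, in a comparison where 53.4% of 13975 genes were called (33.2% lower, 20.2% higher) and where 37.1% of genes had every MOC1E1 culture below and 23.9% every one above. By limma the differences were -1.26 for H2-T23 (SE 0.05, adjusted p = 1.85e-06), -0.76 for Tapbp (SE 0.05, adjusted p = 2.85e-05), -0.51 for Tap2, -0.42 for B2m, -0.36 for both Tap1 and Psmb8, and -0.33 for Psmb9. Nlrc5 rose by 0.34 (SE 0.10, adjusted p = 0.0264) and H2-D1 by 0.20 (SE 0.06, adjusted p = 0.0271) by the same test, while H2-K1 differed by -0.03 (adjusted p = 0.635). The median over the 10 was -0.36 and over all genes -0.06. The calls of H2-D1 and Nlrc5 are the least secure: without a filter on low TPM their adjusted p by limma were 0.0976 and 0.0721, and leaving out 1 culture (MOC1E1 10 or 12, MOC1 4 for H2-D1 or MOC1 6 for Nlrc5) gave 0.0605 to 0.0926. Quantile scaling moved the median of all genes to 0.06, left H2-D1 uncalled (0.11, adjusted p = 0.141) and called H2-K1 lower (-0.24, adjusted p = 0.00372). Rescaling by median-of-ratios put H2-K1 at 0.06, uncalled, and changed the split of all calls to 3732 higher and 3835 lower, against 2821 and 4640; the quantile split was 4285 higher and 3547 lower.

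**Figure D2:**
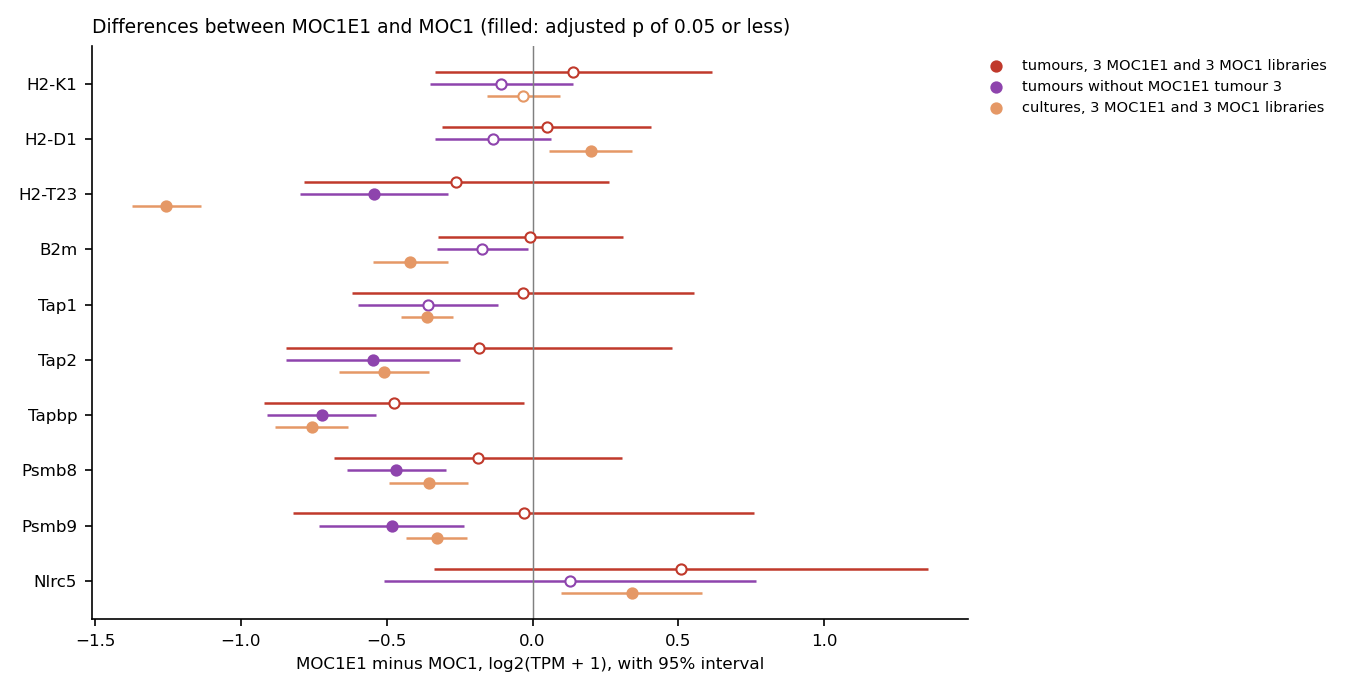
Difference of MOC1E1 minus MOC1 in log2(TPM + 1) with its 95% interval from limma, for tumours, for tumours without MOC1E1 tumour 3 and for cultures; filled points have an adjusted p of 0.05 or less. No point of the full tumour comparison is filled, 5 are without tumour 3 and 9 are in cultures, where H2-T23 lies farthest out at -1.26.

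The other genes of the pathway were partly lower in MOC1E1 cultures, where 33.2% of all tested genes were called lower and 20.2% higher. The counts of standard proteasome genes given below were near or under these shares. Of 10 accessory genes 6 were called lower and 1 higher (median -0.24): Psme1 (-1.07) and Psme2 (-0.85), which encode the PA28 activator of the proteasome, and Tapbpl (-0.93), a peptide editor related to tapasin, had the smallest p values. Of 10 tested other heavy chains 5 were called lower (median -0.24), led by H2-T22 (-0.48), H2-M3 (-0.58), which presents formylated peptides, and Mr1 (-1.21), which presents vitamin B metabolites. After rescaling, 2 other heavy chains were called higher beside 4 lower. Standard proteasome genes split evenly, with 3 higher and 3 lower of 14 (median 0.06; 6 higher and 2 lower after median-of-ratios), Psma4 (-0.55) and Psmb5 (-0.32) having the smallest p values.

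Among regulators the picture was mixed, while interferon targets were lower throughout. The counts of promoter factors were not far from the shares of all genes (33.2% called lower, 20.2% higher). Of 12 factors of class I promoters 5 were called lower and 3 higher (median -0.17; 4 and 4 after rescaling), with Irf8 (-0.84), Irf1 (-0.67) and Rfx5 (-0.48) lower; Irf1 is an interferon-induced activator and Rfx5 binds the X box of MHC promoters. Of 6 tested interferon gamma signalling genes 5 were called lower, among them the receptor chains Ifngr1 (-1.11) and Ifngr2 (-0.98) and the kinase Jak2 (-0.65). Ifng itself stood at 0, 0.05 and 0.14 TPM in MOC1E1 cultures and at 0 in the 3 MOC1 cultures. Of 14 interferon gamma-induced genes 14 were called lower (median -1.28), as were 20 of 20 type I interferon response genes (median -1.99) and 7 of 7 tested MHC class II genes (median -1.88). These 3 counts were the same under both other scalings. Whether the cultures were exposed to interferon gamma, and equally so, was not tested.

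The gap between the lines differed between tumours and cultures in H2-T23 alone of the 10. The difference in tumours minus the difference in cultures was 0.99 on the log2 scale (SE 0.26, adjusted p = 0.0228 by limma), against 16.8% of 16813 genes called (10.2% higher, 6.61% lower; 1393 higher and 1573 lower genes after median-of-ratios, against 1717 and 1111). This call was not secure: without a filter, or without MOC1 tumour 5, MOC1E1 culture 10 or 11, or MOC1 culture 4, the adjusted p by limma was 0.0519 to 0.0565, at values of 0.92 to 0.99. B2m followed at 0.41 (adjusted p = 0.104; 0.56 and called after quantile scaling, adjusted p = 0.0285), and 9 of the 10 values were above 0, with a median of 0.29 against 0.04 for all genes. Without MOC1E1 tumour 3 the median was -0.06 and H2-D1 was called at -0.33 (adjusted p = 0.0486). Type I interferon response genes were called in 12 of 20 and MHC class II genes in 7 of 9 (6 after quantile scaling), in each case with the gap between the lines larger in cultures.

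Ratios between genes of the pathway, per length, differed between tumours and cultures for some pairs and between the lines for others. Tap1 per Tap2 averaged 1.98 ± 0.20 in MOC1E1 tumours and 1.77 ± 0.07 in MOC1 tumours, against 6.62 ± 0.42 in MOC1E1 cultures and 5.94 ± 0.21 in MOC1 cultures (SD, n = 3 each). Psmb8 per Psmb5 averaged 2.20 ± 0.89 in MOC1E1 tumours and 1.87 ± 0.10 in MOC1 tumours, with MOC1E1 tumour 3 at 3.22, against 3.61 ± 0.17 in MOC1E1 cultures and 3.69 ± 0.03 in MOC1 cultures. Psmb9 per Psmb6 averaged 0.49 ± 0.29 in MOC1E1 tumours and 0.41 ± 0.04 in MOC1 tumours, with overlap. Its values in MOC1E1 tumours 1, 2 and 3 were 0.31, 0.33 and 0.82. It averaged 0.51 ± 0.01 in MOC1E1 cultures and 0.69 ± 0.02 in MOC1 cultures, without overlap. Psmb10 per Psmb7, another pair of inducible and standard subunits, was higher in MOC1 tumours than in MOC1 cultures. In MOC1E1 it was 0.91 and 1.08 in tumours 1 and 2, near the cultures, and 2.41 in tumour 3. It averaged 1.47 ± 0.82 in MOC1E1 tumours and 1.42 ± 0.11 in MOC1 tumours, against 1.00 ± 0.05 in MOC1E1 cultures and 1.14 ± 0.03 in MOC1 cultures. H2-K1 per H2-D1 was 2.36 ± 0.21 in MOC1E1 tumours and 2.21 ± 0.10 in MOC1 tumours, and 2.14 ± 0.14 in MOC1E1 cultures and 2.52 ± 0.28 in MOC1 cultures, with overlapping ranges. These ratios were not tested, and tumours and cultures come from separate tables.

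Across the 12 bulk libraries, H2-K1 lay closest to the median profile of the 10 genes, with a root mean square distance of 0.07 on the centred log2 scale, and H2-T23 farthest, at 0.87. Outside the 10, the genes of mean TPM of at least 8 closest to that profile were Myof and Becn1 (0.12 each), Eif4e3 (0.12), Itsn2 and Hnrnpdl (0.13 each), where the median gene was at 0.45. The distance was taken over 12 libraries that share 2 lines and 2 settings, and is a description.

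In the single-cell libraries UMIs were summed over the cells of a class and expressed as CPM, the count scaled to the same total for every class and library, with exact Poisson 95% intervals that cover counting error only. With 1 library per group there is no replicate check, and CPM is compared for 1 gene across classes or libraries, not between genes. T cells were those with at least 2 UMIs of Cd3d, Cd3e and Cd3g outside clusters named for another class; NK-like, macrophage- and monocyte-like, neutrophil-like and dendritic-like cells came from clusters made without the 10 genes and were taken in MOC1E1 only. Cell numbers in the anti-PD-1, anti-CTLA-4 and isotype libraries were 1684, 1958 and 872 T, 687, 131 and 539 NK-like, 1407, 371 and 922 macrophage- and monocyte-like, 547, 254 and 694 neutrophil-like, and 262, 59 and 207 dendritic-like.

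Neutrophil-like cells of MOC1E1 tumours held the highest CPM of B2m, H2-D1, Tap1, Tap2, Tapbp and Psmb9 of these 5 classes in 3 of 3 libraries. B2m stood there at 4391 CPM with anti-PD-1, 6841 CPM with anti-CTLA-4 and 3298 CPM with isotype, against 2670.4, 3388 and 2705 CPM in T cells. Tapbp stood at 576, 846 and 601 CPM in neutrophil-like cells, against 194, 212 and 193 CPM in NK-like cells. The class was not uniform. In the isotype library its cluster led by Retnlg and S100a8, with 228 of 694 cells, had B2m at 2122 CPM, Tap1 at 199 CPM and Tapbp at 266 CPM, each below the class, and H2-D1 at 4024 CPM, above it. The neutrophil-like clusters were shallow, with median UMIs per cell of 735.5 to 1688, and 1 of the 3 (Cxcl2, Irg1 and Hcar2 leading) also had the interferon-induced gene Rsad2 among its leading genes. NK-like cells were lowest in Tap1, Psmb8, Psmb9 and H2-T23 in 3 of 3 libraries, with Psmb9 at 219.8, 229.6 and 179 CPM. Dendritic-like cells were highest in Psmb8 (1102, 947 and 868 CPM) and lowest in H2-K1 (2015, 1368 and 1437 CPM) and H2-D1, also in 3 of 3. The larger dendritic-like cluster, of 351 cells, had Cd3e in 26.8% of its cells, so T cell transcripts enter these values. For these rankings of classes the share of all genes was not counted.

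The balance of the 2 classical heavy chains differed by class. The ratio of H2-K1 to H2-D1 UMIs was 1.16 to 1.17 in T cells and 1.07 to 1.14 in NK-like cells of the 3 MOC1E1 libraries, against 0.625 to 0.794 in all myeloid-like cells together. The lymphoid and myeloid ranges did not overlap.

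**Figure D3:**
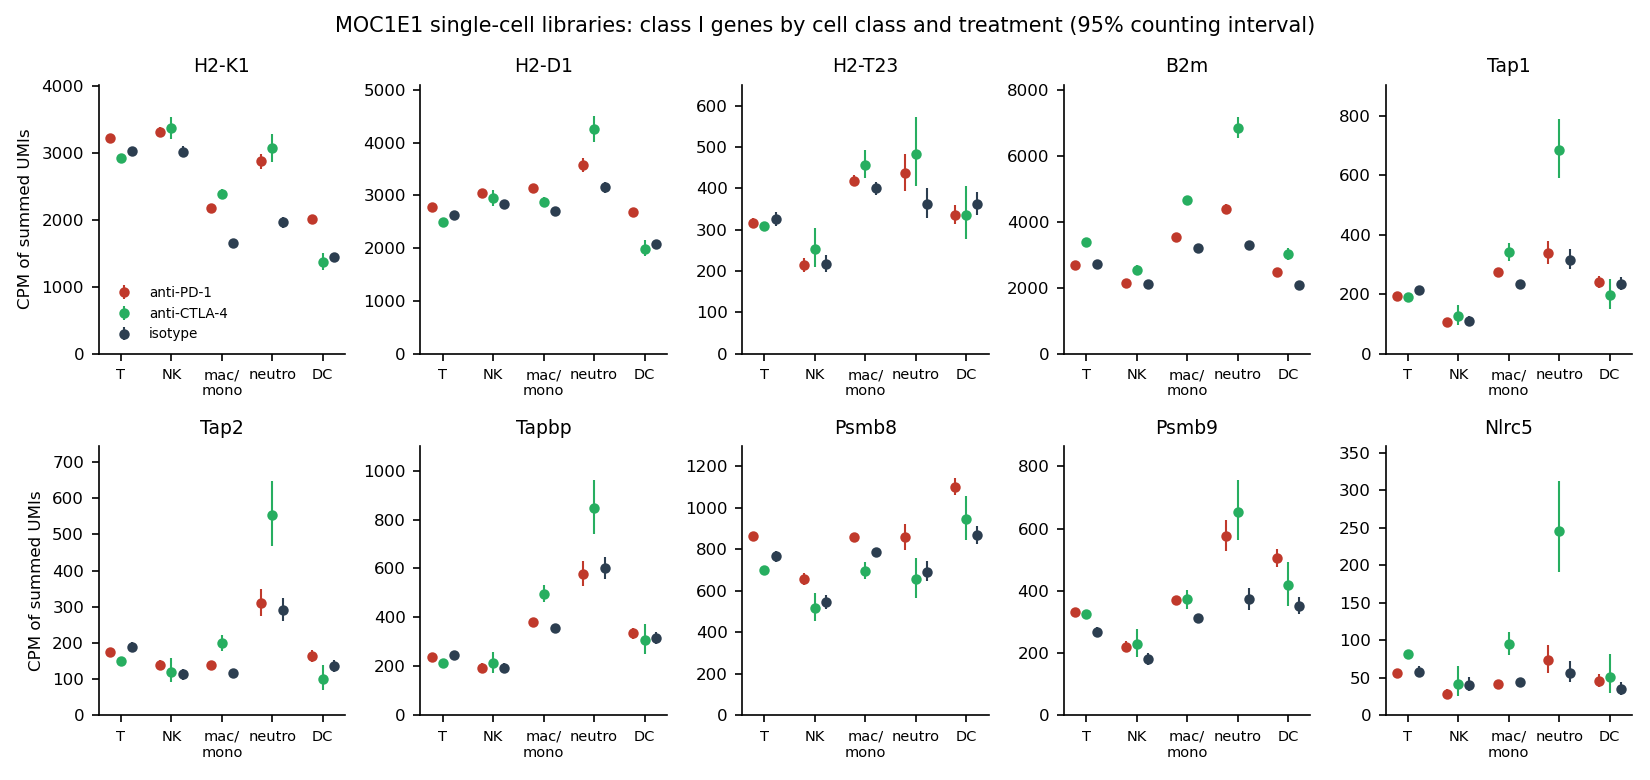
CPM of summed UMIs (linear axes from 0, with 95% counting intervals) for each gene in 5 cell classes of the MOC1E1 libraries, with anti-PD-1, anti-CTLA-4 and isotype side by side. Neutrophil-like cells with anti-CTLA-4 stand highest for B2m, Tap1, Tap2, Tapbp and Nlrc5, and NK-like cells lie low for Tap1 and H2-T23.

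Within T cells, those with Foxp3, the factor of regulatory T cells, held a higher CPM of most class I genes than CD8 T cells. This was so in 8 of 8 libraries for H2-K1, H2-D1, H2-T23, Tap1, Tap2 and Tapbp, in 7 of 8 for B2m, Psmb8 and Psmb9, and in 4 of 8 for Nlrc5. The median ratio was 1.86 for Tap1, 1.82 for Tap2, 1.503 for H2-K1 and 1.08 for Psmb8. Tap1 in isotype libraries stood at 362 CPM (348 to 375.5) in Foxp3 T cells, against 149.8 CPM (139 to 161) in CD8 T cells of MOC1. In MOC1E1 it stood at 385 CPM (343 to 431), against 139 CPM (121 to 157.5), and in MOC22 at 214.5 CPM (184 to 249), against 128 CPM (121 to 135.5). The intervals were apart in all 3 models. Foxp3 T cells numbered 43 and 40 in the anti-CTLA-4 libraries of MOC1 and MOC1E1, so their values there are coarse. The share of all genes higher in Foxp3 T cells than in CD8 T cells was not counted.

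Clusters of T cells led by interferon-induced genes stood out in both models where one formed. In MOC22 such a cluster of 101 cells was above each of 13 other T cell clusters in 10 of 10 genes, with a median ratio of 1.78 to the median of the others. In MOC1 a cluster of 157 cells was above each of 15 others in 3 of 10 genes, with a median ratio of 1.62. The clusters were made without these 10 genes. The share of all genes that were highest in these clusters was not counted, so the 10 cannot be set against genes in general.

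Across the 3 models, anti-PD-1 was set against isotype in CD8 T cells (1328 and 779 cells in MOC1, 708 and 262 in MOC1E1, 2185 and 1438 in MOC22). Psmb9 stood at 284, 322 and 342 CPM with anti-PD-1 in MOC1, MOC1E1 and MOC22, against 195.6, 222 and 244 CPM with isotype. H2-D1 stood at 3147, 2451 and 3030.04 CPM with anti-PD-1, against 2611, 1896 and 1878 CPM with isotype. For both genes each anti-PD-1 library was above the isotype library of its own model. Tap1 stood at 201, 153 and 199 CPM with anti-PD-1, against 149.8, 139 and 128 CPM with isotype. H2-T23 stood at 152, 294 and 390.3 CPM with anti-PD-1, against 123, 243 and 253 CPM with isotype. B2m stood at 2249.7, 2573 and 2311 CPM with anti-PD-1, against 2236, 2336 and 1821 CPM with isotype, nearly level in MOC1. Tapbp stood at 233, 206 and 217 CPM with anti-PD-1, against 243, 189 and 196.5 CPM with isotype, lower with anti-PD-1 in MOC1.

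Of the 10 genes, 8 were higher with anti-PD-1 in 3 of 3 models, against 30.4% of 10090 tested genes, and 0 were called, against 3.49% of genes called (2.1% higher, 1.39% lower). The exceptions in direction were Tapbp and Nlrc5, each lower in MOC1. By edgeR's quasi-likelihood test with the model as a block, Psmb9 differed by 0.43 (SE 0.10, adjusted p = 0.0719), H2-D1 by 0.36 (adjusted p = 0.123), Tap1 and H2-T23 by 0.32 each (0.158 and 0.136), Tap2 by 0.27, Psmb8 by 0.25 and H2-K1 by 0.21. An unadjusted p under 0.05 by edgeR was reached by 6 of the 10 and by 2369 of all genes, and DESeq2 called 0 of the 10. The median of the 10 was 0.26 and of all genes -0.02. Without a filter on low counts, or without MOC22, edgeR called Psmb9 (adjusted p = 0.0457 and 0.0275). Standard proteasome genes were higher in 3 of 3 models in 13 of 14 (median 0.16, 0 called), and of 12 interferon gamma-induced genes 1 was higher and 5 lower in 3 of 3 models (median -0.14), where 16.8% of all genes were lower in 3 of 3.

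**Figure D4:**
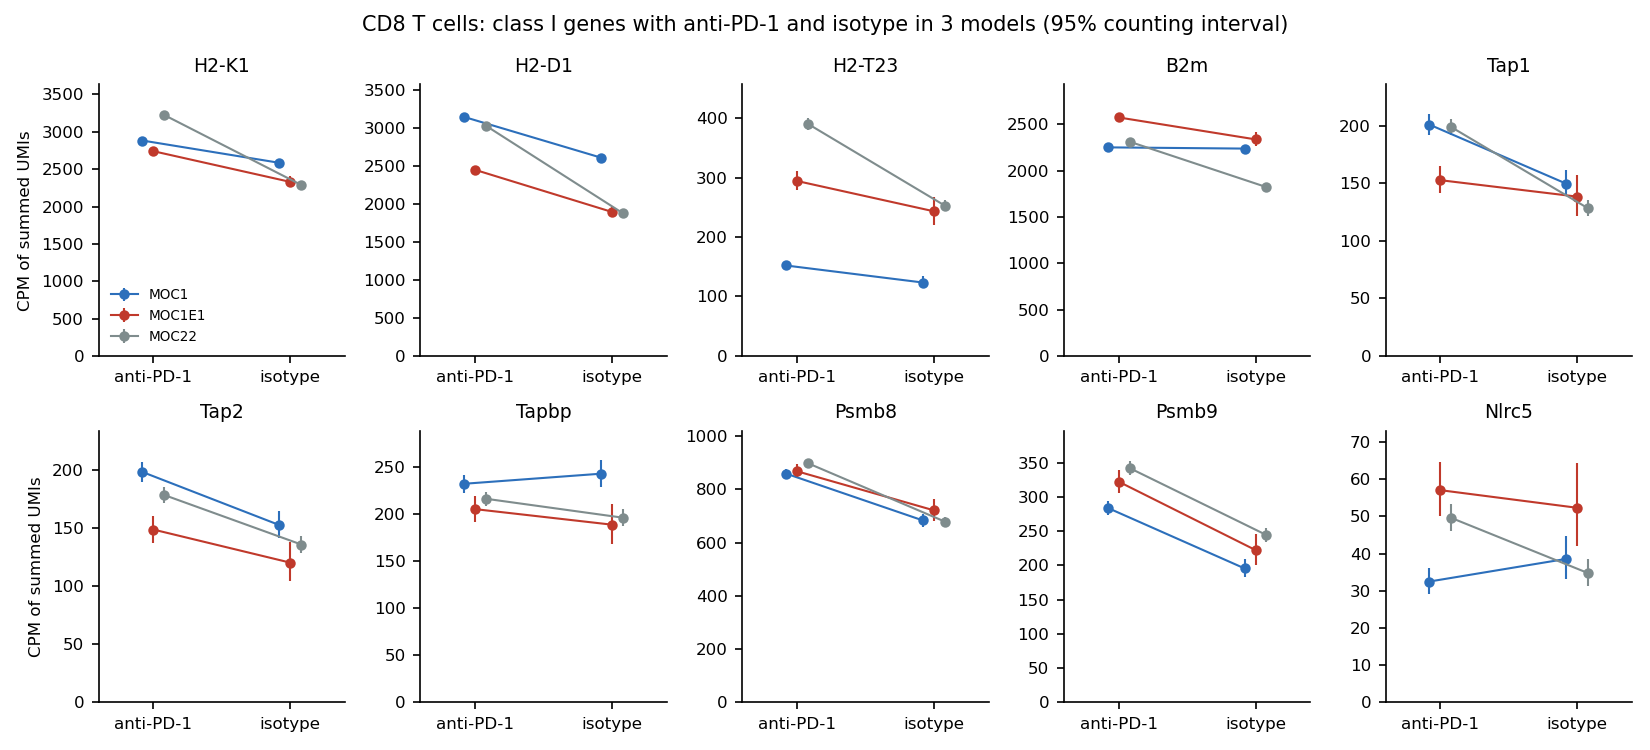
CPM of each gene in CD8 T cells (linear axes from 0, with 95% counting intervals); each line joins the anti-PD-1 library of 1 model to its isotype library. The lines fall towards isotype in 8 of 10 panels for all 3 models, with Tapbp and Nlrc5 the exceptions in MOC1.

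Which cells made up the CD8 T cells also differed between the libraries. CD8 T cells were 40.6, 42.0 and 81.9% of T cells with anti-PD-1 in MOC1, MOC1E1 and MOC22, against 18.9, 30.05 and 53.9% with isotype. In MOC22, 53.1% of isotype CD8 T cells lay in 1 cluster, which held only 6 anti-PD-1 CD8 T cells. That cluster did not enter the comparison within clusters, which took clusters of at least 30 cells in both libraries. Compared within clusters, the median log2 ratio of the 10 genes in MOC22 was 0.01 to 0.10 in 3 clusters and 0.40 in another, against 0.49 for the class. The cluster at 0.40 was left unnamed, was led by immunoglobulin genes such as Igkv6-23 and held 32 isotype CD8 T cells. Within clusters it was 0.11 to 0.29 in MOC1 (class 0.29) and 0.08 to 0.35 in MOC1E1 (class 0.25). Within MOC1, whose libraries carry 4 hashtags each, Psmb9 in CD8 T cells ranged over the hashtags from 243 to 308 CPM with anti-PD-1, against 164 to 229 CPM with isotype, without overlap, and B2m from 2154 to 2355 CPM with anti-PD-1, against 2068 to 2357 CPM with isotype, with overlap. H2-D1, Tap2 and Psmb8 were apart over the hashtags too, while H2-K1, Tap1, H2-T23, Tapbp and Nlrc5 overlapped. The share of all genes apart in this way was not counted. The labels do not say what the hashtags mark.

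Over all T cells the pattern was weaker. Of the 10 genes, 3 (H2-D1, Psmb8 and Psmb9) were higher with anti-PD-1 in 3 of 3 models, against 19.7% of 11361 genes, and 0 were called by edgeR, against 0.0528% of genes. Psmb9 alone of the 10 had an unadjusted p under 0.05 by edgeR (difference 0.30, SE 0.09, adjusted p = 0.298), and DESeq2 called 0 of the 10. The median log2 ratio of the 10 was -0.09 in MOC1, -0.03 in MOC1E1 and 0.42 in MOC22. Foxp3 T cells had a higher CPM of most of these genes than CD8 T cells. They were 12.7, 13.4 and 2.81% of T cells with anti-PD-1, against 26.8, 17.4 and 4.24% with isotype.

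Anti-CTLA-4 had 1 library each in MOC1 and MOC1E1, against the same isotype libraries. In MOC1 CD8 T cells H2-D1 stood at 4026 CPM with anti-CTLA-4, against 2611 CPM with isotype (log2 ratio 0.62, interval 0.60 to 0.65), and it was the only one of the 10 past 1.5-fold, which 9.63% of 6768 genes passed upwards. In MOC1E1 CD8 T cells Nlrc5 stood at 84.0 CPM, against 52.3 CPM with isotype (log2 ratio 0.68, interval 0.36 to 1.02), and Psmb9 at 337 CPM, against 222 CPM (0.60); these 2 of 10 passed 1.5-fold, against 11.5% of 7144 genes. Psmb8 was level in both, at 685 against 683 CPM in MOC1 and 710.1 against 721 CPM in MOC1E1. The medians of the 10 were 0.33 in MOC1 and 0.35 in MOC1E1. Most anti-CTLA-4 CD8 T cells lay in 1 cluster per model, which held 71.5% of them in MOC1, against 2.18% with isotype, and 68.5% in MOC1E1, against 17.2% with isotype. Within clusters of at least 30 cells in both libraries the median was -0.13, 0.03, 0.07 and 0.35 in MOC1, a comparison that the cluster of most anti-CTLA-4 cells did not enter, having 17 isotype cells. In MOC1E1 it was 0.51 within the cluster of most anti-CTLA-4 cells and 0.16 and 0.20 within the others.

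In MOC1E1 NK-like cells the class I genes differed little with treatment, with median log2 ratios of 0.06 for anti-PD-1 and 0.15 for anti-CTLA-4 over isotype and 0 of 10 past 1.5-fold either way. Of all genes 2.04% were that much higher and 3.54% lower with anti-PD-1, and 9.57% higher and 13.0% lower with anti-CTLA-4. H2-K1 stood at 3315 CPM (anti-PD-1) and 3369.5 CPM (anti-CTLA-4), against 3019 CPM with isotype. Psmb9 stood at 219.8 and 229.6 CPM, against 179 CPM with isotype.

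Several of these genes had a higher CPM in myeloid-like cells with anti-CTLA-4. CPM is a share of the UMIs of a class, not a count per cell, and these cells were shallower. In the cluster led by Ccl24 and Cxcl9 the median was 3559 UMIs per cell with anti-CTLA-4, against 7824 with isotype. In macrophage- and monocyte-like cells B2m stood at 4662 CPM with anti-CTLA-4 (4555 to 4770.2), against 3187 CPM with isotype (3143 to 3232), and Tap2 at 198 CPM, against 117 CPM. Tap2 and Nlrc5 passed 1.5-fold, 2 of 10, against 8.51% of 7148 genes, and the median was 0.50. Psmb8 was lower, at 696.5 CPM with anti-CTLA-4, against 784 CPM with isotype (log2 ratio -0.17, interval -0.27 to -0.08). The make-up of the class differed too: 50.1% of its cells lay in the cluster led by Ccl24 and Cxcl9 with anti-CTLA-4, against 34.9% with isotype, and 13.7% in the cluster led by F13a1, against 32.8%. Within its 4 clusters the median was 0.16 to 0.45. With anti-PD-1 the median was 0.18 and 0 of 10 passed, against 1.43% of 7132 genes. In dendritic-like cells the median was 0.31 for anti-PD-1, and for anti-CTLA-4, from 59 cells, it was -0.05.

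Among the MOC1E1 classes, neutrophil-like cells with anti-CTLA-4 had the highest median ratio, 0.73 on the log2 scale. Tap1 stood at 683 CPM (589.5 to 788), against 316 CPM (284 to 350.1) with isotype, a log2 ratio of 1.11. Nlrc5 stood at 246 CPM from 68 UMIs (191 to 312), against 56.6 CPM from 64 UMIs (43.6 to 72.2), a log2 ratio of 2.12. B2m had 1.05, Tap2 0.93, Psmb9 0.81 and H2-K1 0.64, while Psmb8 stood at 654 CPM, against 691 CPM. Of the 10 genes 6 passed 1.5-fold upwards, against 14.3% of 6429 genes, and 9 were higher at any fold, against 31.4%. The library moved in other ways too: 81.5% of its 254 neutrophil-like cells lay in the cluster led by Cxcl2, Irg1 and Hcar2, against 26.4% of 694 with isotype. Within that cluster the median of the 10 was 0.54 with 9 higher, against 0.73 for the class. Nlrc5 stood there at 276.7 CPM with anti-CTLA-4 (63 UMIs), against 121.1 CPM with isotype (34 UMIs), a smaller gap than in the class. B2m stood there at 7357 CPM, against 4876 CPM with isotype, and Tap1 at 742 CPM, against 452 CPM. Among cells thinned to 2000 UMIs, of which only 10 remained with anti-CTLA-4 and 188 with isotype, the median was 0.095. With anti-PD-1 52.7% of neutrophil-like cells lay in that cluster, and the median was 0.29 for the class and -0.07 within the cluster.

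**Figure D5:**
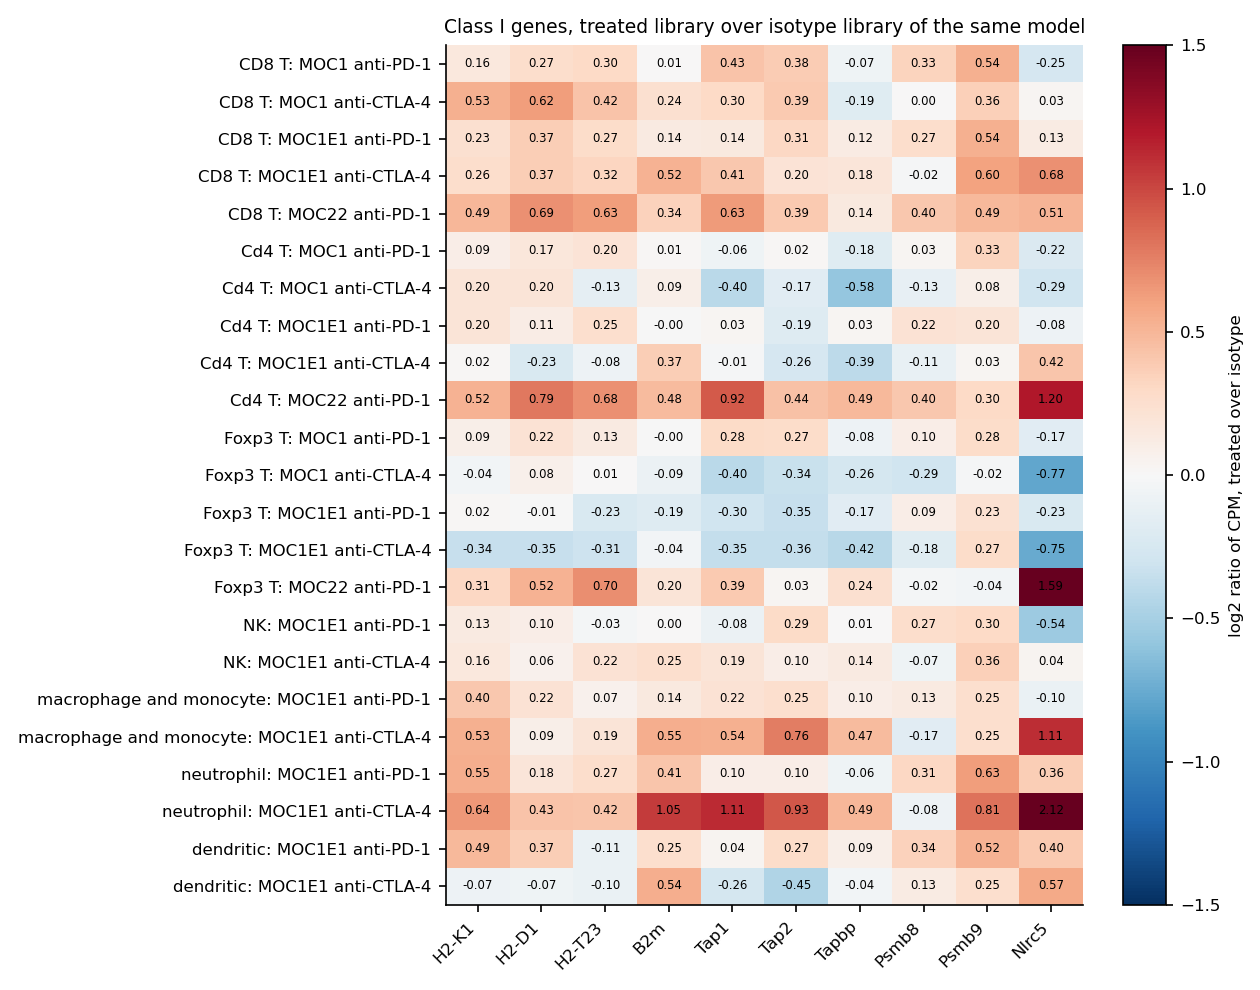
log2 ratio of CPM, treated library over the isotype library of the same model, for each gene (columns) and each cell class, model and antibody (rows); each cell rests on 1 library a side and has no test. CD8 T rows are mostly above 0, T rows with Foxp3 and anti-CTLA-4 mostly below 0, and the neutrophil row with anti-CTLA-4 reaches 2.12 for Nlrc5.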

How the data were processed

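Bulk RNA of 6 tumours and 6 cultures was used as the authors' deposited TPM, in 1 table for tumours and 1 for cultures, whose columns could be tied to a group but not to a single labelled sample. The submitters' processing notes name Trimmomatic 0.36, kallisto 0.46.0, DESeq2 and Cell Ranger 3.0.2, without roles, and the builds mm10 and GRCh38. Single-cell files are the authors' deposited UMI counts per gene and cell, from a 10x 5' kit per the labels' protocols, and the header of the MOC1 files names another software version, so libraries were compared within a model. No column of another series was used (0 in the tables).

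TPM was tested as log2(TPM + 1) with limma 3.58.1 (trend) in R 4.3.3, keeping genes of at least 1 TPM in 3 libraries, with Benjamini-Hochberg adjustment over all of them; a fold change on this scale understates that of low genes. Cells under 300 genes or over 10% mitochondrial UMIs were dropped, cells with several hashtags and those of highest doublet score (a share growing with the cell number) were removed, and clusters were made per model with scanpy 1.11.5 (2000 variable genes, 30 components, 15 neighbours, resolution 1) without the 10 genes. T cells had been planned from clusters; they were instead taken by transcripts after the data were seen, and T cells from clusters became an added alternative. UMIs summed per class and library were tested over the 3 models with edgeR 4.0.16 (quasi-likelihood, model as a block), DESeq2 1.42.0 being an alternative. Both fitting steps were tested on simulated data. Intervals are exact Poisson 95% and cover counting error only. Background shares of single-cell folds were taken over genes of a mean of at least 10 CPM.

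Whether replicates came from separate mice or cultures is not stated, so the p-values cover the spread between these libraries, which may be technical. The genes and lists were chosen with earlier results of these data known. The text names the 10 genes, the 3 genes of smallest p of each list and the 5 genes of most similar profile; genes beyond these, such as Cxcl10, Ptprc, Psmb6, Ifng and those leading a cluster, were named after their values were seen. Promoter sequences are from RefSeq (GRCm38.p6).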

Additional observations from a re-analysis of the deposited data

Results flagged for a closer look

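The difference between MOC1E1 and MOC1 itself differed between tumours and cultures in 2828 of 16813 genes (16.8%; limma, adjusted over all genes). Of the class I genes and the 3 genes of smallest p in each list, 14 were among them; each value is, on the log2 scale, the difference in tumours less that in cultures. Of the class I genes this was H2-T23, at 0.99. Among heavy chains outside the 10 it was Mr1, at 0.95. Of interferon gamma signalling it was Ifngr2 at 0.87, Ifngr1 at 0.68 and Jak2 at 0.66. Of the interferon-induced genes of smallest p, it was Cxcl9 at 3.38, Cxcl10 at 2.60, Ifit2 at 3.46, Ifit1 at 3.30 and Oas1a at 2.84. Of the 3 MHC class II genes of smallest p, it was H2-Aa at 1.97, H2-Eb1 at 1.87 and Cd74 at 1.86. The standard proteasome gene Psmb6 stood at -0.23, the only one of the 14 below 0.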

How the results depend on the processing

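The depth behind TPM is unknown, and 1 library per model and antibody limits every single-cell contrast. No called value of a single gene changed sign, but medians of the 10 did: the tumour minus culture median was -0.06 without MOC1E1 tumour 3, against 0.29, and the anti-PD-1 median over T cells was -0.01 without MOC22, against 0.12. The tumour median, -0.03, ran from -0.41 (without MOC1E1 tumour 3) to 0.11 (without MOC1E1 tumour 2). In tumours, genes called higher numbered 664 without a filter, 1638 after median-of-ratios and 1957 after quantile scaling; leaving out 1 library gave 1498 to 2617 genes called, 427 to 898 higher and 983 to 1719 lower, and 0 to 5 of the 10 class I genes, 5 being without MOC1E1 tumour 3. In cultures, quantile scaling gave 4285 genes higher. The tumour minus culture comparison called 0 of the 10 without a filter, 2 after quantile scaling and 0 to 2 with 1 library left out. For anti-PD-1 over 3 models in T cells, DESeq2 called 192 genes, no count filter 26, no model block 0, and leaving out 1 model 0 to 609, the highest without MOC22. In CD8 T cells no count filter gave 719 genes and 1 of the 10, no model block 0 genes, and leaving out 1 model 12 (without MOC1E1) to 594 genes (without MOC22) and 0 to 1 of the 10. For anti-CTLA-4 in MOC1E1, the median log2 ratio of the 10 was 0.095 in neutrophil-like cells thinned to 2000 UMIs, and in myeloid-like cells 0.34 when thinned and 0.56 with classes from single transcripts. The cause was not tested in these cases. No paired analysis was possible because the bulk columns carry no replicate numbers that tie them to samples across groups.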
